A study of Mus musculus with 816 samples.

Results

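Prostaglandin E2 (PGE2) given alone for 24 h to cultured primary mouse microglia is described here against untreated microglia collected at 24 h. The members were chosen by the sample labels and the header of the deposited table: every culture whose only treatment was PGE2 at 0.001 ug/ul for 24 h (8 cultures), and every culture with no treatment at 24 h (40 cultures). Together these are 48 of the 784 cultures, in a series of 816 samples. The series exposed microglia in multiwell plates to a panel of cytokines, neuromodulators and other stimuli, alone and combined, and read RNA by sequencing the 3′ ends of transcripts. The cells were bought as primary microglia of newborn mice in 3 lots, and neither the sex nor the number of animals behind a lot is given. The labels of the series do not state a question for PGE2 alone. The other groups used for comparison were collected at 72 h, with 1 exception. They are PGE2 alone at 0.001 ug/ul (8 cultures), no treatment (25), the bacterial-type lipopeptide Pam3CysSerLys4 (P3C) at 0.001 ug/ul without PGE2 (6) and with it (7), and tumour necrosis factor alpha (TNFa) with P3C, without PGE2 (7) and with it (7). The label of the TNFa and P3C mixtures gives 0.000004 ug/ul, without saying which agent it belongs to. The exception is norepinephrine at 1 uM for 24 h (7 cultures).

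PGE2 is a lipid mediator made from arachidonic acid by the cyclooxygenases Ptgs1 and Ptgs2 and by PGE2 synthases, and it is broken down inside cells by the dehydrogenase Hpgd. It acts on a family of surface receptors: those encoded by Ptger2 and Ptger4 couple to Gs and raise cyclic AMP, Ptger3 mostly lowers it, and Ptger1 is linked to calcium. Cyclic AMP activates protein kinase A, which phosphorylates the transcription factor CREB at genes that carry cyclic AMP response elements, and in macrophages and microglia this route is known for restraining inflammatory cytokines.

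The 8 PGE2 cultures stood on 3 plates, here lettered A (3 cultures), B (2) and C (3), and the 40 untreated ones on these plates (6, 3 and 9) and on plates D (10), G (4) and H (8). Values are read counts scaled to 1e6 mapped reads (CPM), so they compare a gene between cultures and not genes of different length or capture with each other. Depth was 1.40 to 7.47 M reads in the PGE2 cultures (median 3.44) and 1.09 to 14.99 M in the untreated ones (median 5.36), so that at the lowest depth 1 read weighs 0.918 CPM. Between 8666 and 9400 genes exceeded 5 CPM in a PGE2 culture and 8096 to 9466 in an untreated one. By the table header, 2 of the 8 PGE2 wells and 10 of the 40 untreated wells lay at the plate edge. On plate B all 3 untreated wells were edge wells and both PGE2 wells were middle wells.

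Markers fit the label of microglia, with signs of a culture state and of some other cells. The summed level of 10 microglia markers was 3773 to 4979 CPM in the PGE2 cultures (median 3898) and 3755 to 9410 in the untreated ones (median 5950), with the growth factor receptor Csf1r the most abundant. P2ry12 and Tmem119, which mark microglia in the intact brain, were low: their medians were 7.84 and 11.8 CPM with PGE2 and 3.49 and 14.6 without. Markers of other brain and blood cells were scarce: the median sum was 12.8 CPM with PGE2 and 11.8 without for 12 astrocyte genes, 79.6 and 85.7 for 12 oligodendrocyte lineage genes, 5.07 and 3.41 for 11 neuronal genes, 67.9 and 74.3 for 10 endothelial genes, 9.12 and 8.64 for 10 neutrophil genes and 4.40 and 2.51 for 12 genes of T, B and NK cells. For 7 monocyte genes, of which Fn1 was the most abundant, the median sum was 110 CPM with PGE2 and 96.1 without. Fibroblast and mural cell genes (11, led by Acta2) varied between cultures, up to 1484 CPM in PGE2 replicate 7 (55.2 to 329 in the other PGE2 wells) and 1297 in an untreated well, with medians of 132 and 120; Lum and Vtn were at 0 in every culture of both groups. The 8 perivascular macrophage genes summed to a median of 1414 CPM with PGE2 and 858 without, 1 of them being Pf4, which is described below as a gene that rose. Without Pf4 the sums were 640.0, 886 and 1295 CPM in the lowest, median and highest PGE2 culture and 426, 664 and 1084 in untreated cultures, which overlap; the sum was not tested. In bulk cultures, fewer cells of a type and less RNA per cell cannot be told apart.

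PGE2 alone changed few genes at 24 h. Of 11567 genes tested, 14 rose (0.121%) and 8 fell (0.0692%), 22 in all (0.19%), at an adjusted p under 0.05 (limma with plate as block, Benjamini-Hochberg) and a log2 fold change of at least 1 in size. Those that rose include the secreted chemokines Pf4 and Ccl9, the angiogenic growth factor Vegfa, the lipid droplet protein Hilpda, the iron carrier Trf and the cysteine protease inhibitor Ctla2a. Those that fell include the fractalkine receptor Cx3cr1, the vesicle membrane protein Tmem176b and Hpgd, the enzyme that inactivates PGE2. A further 13 genes passed the adjusted p with a smaller change, 35 in all at any size (0.303%), and 1186 had an unadjusted p under 0.05. The median log2 fold change of all genes tested was 0.05. The p-values measure the spread between wells of purchased cells, and nothing in the labels says that wells come from separate animals.

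**Figure D1:**
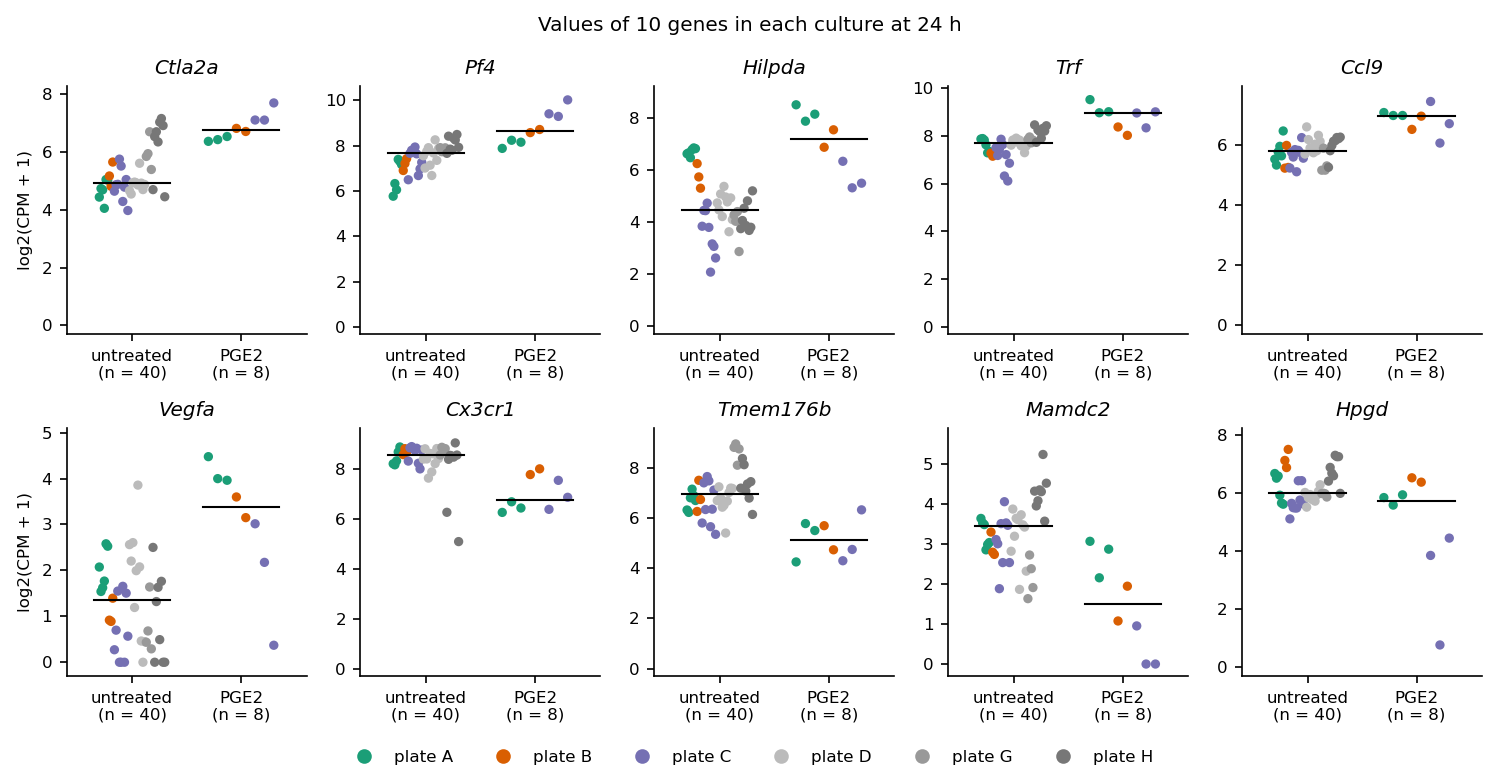
Level of 10 genes in each culture at 24 h, as log2(CPM + 1), for 40 untreated and 8 PGE2 cultures, with plates coloured and the group median as a line. PGE2 cultures of Ctla2a, Pf4, Hilpda, Trf and Ccl9 all lie above the untreated median, and those of Cx3cr1, Tmem176b and Mamdc2 all below it; Vegfa and Hpgd overlap more.

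The call of 11 of the 22 genes stood in each of 48 fits that left out 1 culture: Ccl9, Ctla2a, Cx3cr1, Gm26843, Hal, Hilpda, Mamdc2, Pf4, Tmem176b, Trf and Vegfa. For the other 11 at least 1 culture decides the call, and the values without it are given with the genes named below. Without plate C 11 genes were called, 9 higher and 2 lower, and without plate A 13, 10 higher and 3 lower; both fits hold fewer cultures. Without PGE2 replicate 7, a well of plate C, 13 genes were called, 10 higher and 3 lower, and the calls of 9 of the 22 genes ended. This well had a depth of 1.42 M reads and the highest level of fibroblast and mural cell genes among the PGE2 wells; whether other cells in it bear on these calls was not tested. Over 21 alternative fits, 6 genes were called in all: Ccl9, Ctla2a, Gm26843, Hilpda, Pf4 and Trf. Tmem176b was called in 20, Cx3cr1, Hal and Mamdc2 in 19, Vegfa in 18, Hpgd in 17, Gm38079 and Hjurp in 16, Clec12a and Emb in 15, Nanos1 in 14 and Man1a in 13. Genes of few reads could be tested in fewer fits: Trem1 was called in 14 of 18, Runx3 in 12 of 19 and Dusp2 in 7 of 20.

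The receptors for PGE2 were present at low levels, and none of the prostanoid receptor genes was called. Ptger4 was at 12.22, 18.7 and 25.1 CPM in the lowest, median and highest PGE2 culture and at 9.10, 32.1 and 83.0 in untreated cultures. All 8 PGE2 values lay below the untreated median but within the untreated range, and with plate in the fit the log2 fold change was -0.33 (95% confidence interval -0.91 to 0.26, adjusted p = 0.755). Ptger2 was at 4.44, 10.8 and 13.01 CPM with PGE2 and 0, 8.70 and 27.9 without, with a log2 fold change of 0.32 (95% confidence interval -0.37 to 1.01, adjusted p = 0.81). Ptger1 was at 0, 6.34 and 16.5 CPM with PGE2 and 0, 11.2 and 44.1 without, with a log2 fold change of -0.20 (95% confidence interval -1.502 to 1.102, adjusted p = 0.952). These ranges overlap throughout. Ptger3, Ptgfr and Tbxa2r were at 0 in every culture of both groups, and Ptgdr, Ptgdr2 and Ptgir did not reach 5 CPM in at least 4 cultures, so 3 of the 9 receptor genes were tested, with a median log2 fold change of -0.20.

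Among the enzymes and transporters of prostaglandins, Hpgd fell and the other 19 of 20 genes tested were not called (list median 0.03, all genes 0.05). Of all genes 0.121% rose and 0.0692% fell. Hpgd was at 0.703, 51.5 and 90.6 CPM in the lowest, median and highest PGE2 culture, against 33.4, 62.0 and 179 in untreated cultures. The lowest 3 PGE2 values were the plate C wells, at 0.703 to 20.8 CPM, below the untreated wells there (33.4 to 84.5), while on plate A the wells overlapped (46.8 to 60.0 and 47.8 to 100.4). On plate B both PGE2 wells lay below the untreated wells (81.5 to 90.6 and 116 to 179 CPM). Its log2 fold change was -1.40 (95% confidence interval -1.99 to -0.82, adjusted p = 0.00839). The size of the fall rests on replicate 7, at 0.703 CPM: without that culture the value was -0.86 (adjusted p = 0.0305), short of the minimum change, and without plate C it was -0.50 (adjusted p = 0.9). It also missed the adjusted p without the plate term, at -1.25 (adjusted p = 0.0718), and with only the shared plates, at -1.41 (adjusted p = 0.102). The cyclooxygenase Ptgs1 was at 29.4, 64.7 and 81.6 CPM with PGE2 and 4.18, 38.7 and 71.1 without, with a log2 fold change of 0.47 (adjusted p = 0.314). The inducible cyclooxygenase Ptgs2 stayed under the filter, with medians of 1.03 and 1.08 CPM. The PGE2 synthase Ptges had all 8 PGE2 values below the untreated median (5.28 against 12.5 CPM) and, with plate in the fit, a log2 fold change of -0.14 (adjusted p = 0.929).

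No gene of the cyclic AMP machinery was called among 34 tested (median 0.13, all genes 0.05; 6 with an unadjusted p under 0.05). The highest value was that of Crem, a cyclic AMP-inducible transcription factor of the CREB family. Crem was at 10.7, 17.8 and 27.7 CPM with PGE2 and 0, 8.43 and 21.1 without; all 8 PGE2 values lay above the untreated median, and the log2 fold change was 1.41 (95% confidence interval 0.58 to 2.24, adjusted p = 0.137). Gnas, which encodes the Gs protein itself, was at 455, 624 and 1219.8 CPM with PGE2 and 554, 896 and 1442 without, with a log2 fold change of -0.46 (95% confidence interval -0.69 to -0.22, adjusted p = 0.064). Neither passed. The phosphodiesterases Pde4b and Pde4d, which degrade cyclic AMP, had log2 fold changes of 0.43 (adjusted p = 0.749) and -0.46 (adjusted p = 0.751), and the kinase subunit Prkar1a had 0.38 (adjusted p = 0.425).

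Of 27 genes tested from a list of early and secreted genes linked to CREB, 1 rose and none fell. Of all genes 0.121% rose and 0.0692% fell. The list median was 0.44 beside 0.05 for all genes. The gene that rose was Vegfa, which drives vessel growth. Vegfa was at 0.292, 9.49 and 21.2 CPM in the lowest, median and highest PGE2 culture and at 0, 1.56 and 13.5 in untreated cultures. On plates A and B the PGE2 wells (14.6 to 21.2 and 7.87 to 11.11 CPM) lay above the untreated wells (1.91 to 4.97 and 0.852 to 1.63), and on plate C they overlapped (0.292 to 7.08 and 0 to 2.14). Its log2 fold change was 1.77 (95% confidence interval 1.03 to 2.499, adjusted p = 0.00839). At these low levels the call depends on the fit: it was 2.46 (adjusted p = 0.163) with a pseudocount of 0.1, 1.56 (adjusted p = 0.269) without plate A and 1.61 (adjusted p = 0.0717) without plate B. Thbs1, the matrix protein thrombospondin, had the highest value of the list and did not pass. It was at 16.7, 74.2 and 138 CPM with PGE2 and 0, 16.24 and 63.9 without, 5 of 8 PGE2 wells being above every untreated well, with a log2 fold change of 2.10 (95% confidence interval 1.06 to 3.14, adjusted p = 0.0543). Nr4a1, an immediate early nuclear receptor, had a log2 fold change of 1.88 (adjusted p = 0.111), and Fosl2, a partner of Jun, 0.86 (adjusted p = 0.208); neither passed.

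Some receptors of PGE2 raise cyclic AMP, so promoters were searched for the cyclic AMP response element. RefSeq promoters (GRCm38.p6, 250 bases before to 50 after the start) were found for 12 of the 14 genes that rose and 6 of the 8 that fell. The core TGACG, read on both strands, lay in a promoter of 6 of the 12 (50%), in none of the 6 (0%) and in 3038 of 8280 genes tested that have a promoter in the table (36.7%). The full palindrome TGACGTCA, which contains the core on both strands, lay in none of the promoters of genes that rose or fell and in 316 of the 8280 (3.82%). At 72 h only 36 of the 92 genes that rose and 25 of the 30 that fell have a promoter in the table. The core lay in 8 (22.2%) and 10 (40%) of these, beside 2957 of 8009 tested (36.9%). The shares at 24 h rest on 12 and 6 genes, and no share was tested against that of all genes. The core was found at 24 h for Ctla2a, Hilpda, Vegfa, Dusp2, Man1a and Gm26843. Genes with several starts have several windows, and 1 window with the core counts the gene. For Vegfa the core lies only in the window of a start further down the gene, and the window of its upstream start has none; Gm26843 has it in 1 of 3. Shown are promoters of Ctla2a and Hilpda, which rose at both 24 h and 72 h, and that of Pf4, which rose at both times and has no match; capitals mark TGACG, or CGTCA where it lies on the other strand. They are chr13:60936517-60936816 on the minus strand for Ctla2a, chr6:29272376-29272675 on the plus strand for Hilpda and chr5:90772185-90772484 on the plus strand for Pf4. A match describes letters in these windows and says nothing on binding.
Ctla2a: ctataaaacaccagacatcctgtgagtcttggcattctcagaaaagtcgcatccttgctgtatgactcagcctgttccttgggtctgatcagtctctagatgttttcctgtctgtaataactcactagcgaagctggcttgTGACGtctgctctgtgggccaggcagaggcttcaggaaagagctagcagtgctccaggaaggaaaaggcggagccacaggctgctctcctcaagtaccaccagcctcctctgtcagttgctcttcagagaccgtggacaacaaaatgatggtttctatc
Hilpda: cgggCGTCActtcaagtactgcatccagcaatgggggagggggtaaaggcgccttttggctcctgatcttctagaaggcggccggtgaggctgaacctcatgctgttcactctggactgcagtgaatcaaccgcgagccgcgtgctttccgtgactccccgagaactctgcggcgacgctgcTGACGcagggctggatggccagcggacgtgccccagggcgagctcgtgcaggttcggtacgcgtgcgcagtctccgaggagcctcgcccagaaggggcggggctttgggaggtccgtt
Pf4: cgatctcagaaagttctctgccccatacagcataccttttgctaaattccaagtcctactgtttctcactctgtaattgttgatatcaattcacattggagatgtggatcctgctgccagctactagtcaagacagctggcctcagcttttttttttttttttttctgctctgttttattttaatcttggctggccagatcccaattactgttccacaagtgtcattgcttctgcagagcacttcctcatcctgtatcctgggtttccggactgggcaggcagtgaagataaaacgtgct

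Hilpda and Ctla2a were among the clearest rises. Hilpda, a lipid droplet protein that blocks fat breakdown, was at 38.7, 150.01 and 359.7 CPM in the lowest, median and highest PGE2 culture and at 3.22, 20.9 and 114 in untreated cultures. Its level depended strongly on the plate: PGE2 wells held 232 to 359.7 CPM on plate A and 38.7 to 79.3 on plate C, above the untreated wells of the same plate in each case (87.3 to 114 and 3.22 to 25.4). The log2 fold change was 1.74 (95% confidence interval 1.22 to 2.26, adjusted p = 3.7e-05). Hilpda also responds to low oxygen; whether oxygen played a part was not tested. None of 27 tested genes of glycolysis and the hypoxia response was called, with a list median of 0.11 and 3 genes at an unadjusted p under 0.05. Ctla2a, an inhibitor of cathepsin-like proteases, was at 81.9, 108 and 208 CPM with PGE2 and 14.8, 29.6 and 143 without. All 8 PGE2 wells exceeded the untreated wells of their own plate, and the 6 untreated wells that reached the PGE2 range were on other plates. Its log2 fold change was 2.005 (95% confidence interval 1.501 to 2.51, adjusted p = 1.2e-06). The neighbouring gene Ctla2b had 0.13 (adjusted p = 0.88).

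The chemokines Pf4 and Ccl9 rose at 24 h. Of 16 chemokines tested 2 rose and none fell (median 0.13), where 0.121% of all genes rose and 0.0692% fell. Pf4, a chemokine best known from platelets and also made by macrophages, was at 235, 399 and 1035 CPM in the lowest, median and highest PGE2 culture and 53.7, 201 and 359 in untreated cultures. The PGE2 wells lay above all untreated wells of their own plate, and 5 of 8 lay above every untreated well; the log2 fold change was 1.75 (95% confidence interval 1.34 to 2.16, adjusted p = 2.5e-07). Ccl9, which attracts monocytes and dendritic cells, was at 66.6, 126 and 176 CPM with PGE2 and 33.8, 55.9 and 97.3 without. Among the 8 PGE2 wells 6 exceeded every untreated well, and the log2 fold change was 1.18 (95% confidence interval 0.85 to 1.51, adjusted p = 9.6e-06). Ccl6, whose gene lies near that of Ccl9 on chromosome 11, was at 210.1, 283 and 328 CPM with PGE2 and 50.8, 134 and 196 without. Its groups did not overlap, but at a log2 fold change of 0.92 (95% confidence interval 0.67 to 1.17, adjusted p = 9.0e-06) it passed the adjusted p and not the minimum change. The monocyte attractant Ccl2 had 0.33 (adjusted p = 0.769).

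Inflammatory and regulatory cytokines did not pass. None of 10 cytokines tested was called (median 0.27; 1 with an unadjusted p under 0.05). Tnf was at 35.2, 56.0 and 109 CPM with PGE2 and 26.2, 89.8 and 409.7 without, with a log2 fold change of -0.01 (95% confidence interval -0.47 to 0.44, adjusted p = 0.995). Il1b was at 0.877, 6.43 and 14.7 CPM with PGE2 and 0, 9.22 and 65.3 without, with 0.34 (95% confidence interval -0.44 to 1.12, adjusted p = 0.823). Both ranges lie inside the untreated one, and the plates differ in the basal level of these genes: without the plate term Il1b had -0.77. Il6 and Il10 stayed under the filter, with Il10 at 0 in all 8 PGE2 cultures and at most 6.96 CPM in an untreated one. None of 18 genes of regulatory and alternative activation was called either (median 0.29, 7 with an unadjusted p under 0.05).

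Further genes that rose have varied roles. Trf, the serum iron carrier transferrin, had the smallest adjusted p of all genes. It was at 258, 497 and 729.8 CPM in the lowest, median and highest PGE2 culture and at 68.0, 209 and 350.3 in untreated cultures. The PGE2 wells exceeded the untreated wells of their own plate on all 3 plates, with a log2 fold change of 1.45 (95% confidence interval 1.13 to 1.77, adjusted p = 8.5e-08). Hal, which starts the breakdown of histidine, was at 159, 222 and 520.0 CPM with PGE2 and 0, 69.8 and 222 without, with 1.46 (95% confidence interval 0.98 to 1.94, adjusted p = 2.7e-04). All 8 wells lay above the untreated median, but on plate B the groups overlapped, and the call ended without a plate term, at 2.80 (adjusted p = 0.132), and without plate C, at 1.03 (adjusted p = 0.194). Emb, a partner of lactate transporters, was at 18.7, 60.2 and 87.0 CPM with PGE2 and 0, 11.8 and 30.8 without. Its log2 fold change was 1.54 (adjusted p = 0.0197), and 1.40 (adjusted p = 0.108) without replicate 6. It also missed the adjusted p with library pool in place of plate, at 1.31 (adjusted p = 0.135), with a pseudocount of 0.1, at 1.74 (adjusted p = 0.321), and without plate A, B or C.

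Trem1, a receptor that amplifies innate immune signals, was at 0, 7.18 and 19.98 CPM with PGE2 and 0, 0.281 and 4.83 without. The high wells were mostly on plate A (9.82 to 19.98 CPM, against 0.869 to 4.83 untreated there), and on plate B the groups overlapped near 0. Its log2 fold change was 1.55 (adjusted p = 0.00839), and 1.30 (adjusted p = 0.0796) without replicate 6. Man1a, a mannosidase that trims glycoproteins, was at 60.8, 104 and 154 CPM with PGE2 and 10.2, 42.5 and 92.3 without, with 1.01 (adjusted p = 7.1e-04); leaving out 1 of 11 cultures took it just under the minimum change, to between 0.94 and 0.995. These were PGE2 replicates 2, 4 and 7 and 8 untreated wells. The predicted gene Gm26843 rose by a log2 fold change of 1.20 (adjusted p = 3.4e-05).

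For 3 further genes the rise rests on few reads. The predicted gene Gm38079 had 1.94 (adjusted p = 0.00839), and 1.54 (adjusted p = 0.108) without replicate 7, its highest well at 29.5 CPM. Runx3, a transcription factor of the Runt family, was at 1.06, 2.90 and 7.90 CPM with PGE2 and 0, 1.01 and 6.03 without, with 1.18 (adjusted p = 0.0229); without PGE2 replicate 6, 7 or 8 the value was 1.11 to 1.16 and no longer passed. Dusp2, a phosphatase that switches off MAP kinases, was at 1.67, 3.16 and 9.14 CPM with PGE2 and 0, 2.74 and 27.3 without. Its mean was lower with PGE2 (3.76 against 5.54 CPM), as untreated wells of plate D, which holds no PGE2, reached high values; the fit within plates gave 1.11 (adjusted p = 0.0424), and 18 of the 48 fits that left out 1 culture (5 PGE2 and 13 untreated wells) ended the call, at values of 0.89 to 1.11.

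Among genes of the resting microglial surface, Cx3cr1 fell. Of 22 homeostatic microglia genes tested 1 fell and none rose (median -0.07, all genes 0.05). Of all genes 0.121% rose and 0.0692% fell. An unadjusted p under 0.05 was found for 5 of them, all lower (22.7%, all genes 10.2%). The summed level of the list was lower with PGE2 on plate C (5098 to 6185 CPM, untreated 6738 to 9002). It was also lower on plate B (4922 to 4975, untreated 5239 to 5381), and on plate A the wells overlapped. On plate B the untreated wells were edge wells and the PGE2 wells middle wells, so PGE2 and well position cannot be told apart there. These sums were not tested. Cx3cr1, the receptor through which microglia sense neuronal fractalkine, was at 75.8, 109 and 257 CPM in the lowest, median and highest PGE2 culture and at 33.1, 379.9 and 529 in untreated cultures. On each of the 3 shared plates the PGE2 wells lay below all untreated wells, while over all plates 5 untreated wells reached the PGE2 range. On plate H, which holds no PGE2, Cx3cr1 was at 76.0 and 33.1 CPM in edge wells and 335 to 529 in middle wells. On plates C and D the untreated edge wells (319 and 235 CPM) lay within the range of the untreated middle wells. Edge and middle wells were not tested against each other. The log2 fold change of Cx3cr1 was -1.62 (95% confidence interval -2.19 to -1.05, adjusted p = 8.2e-04). Without plate A it was -1.37 (adjusted p = 0.17) and without plate C -1.58 (adjusted p = 0.194). With well type added to plate, a fit chosen after the data were seen, it was -1.82 (adjusted p = 9.0e-07). Among the other genes of the list, Csf1r had -0.16 (adjusted p = 0.747), Trem2 -0.28 (adjusted p = 0.453) and P2ry12 -0.03 (adjusted p = 0.992).

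Tmem176b, a membrane protein of intracellular vesicles linked to dendritic cell maturation, was at 18.1, 35.3 and 79.8 CPM with PGE2 and 40.04, 124 and 500.5 without. Among the 8 PGE2 wells 4 were below every untreated well, and the log2 fold change was -1.51 (95% confidence interval -2.08 to -0.94, adjusted p = 0.00249), or -1.51 (adjusted p = 0.0902) without plate A. Its neighbour Tmem176a had -0.82 (adjusted p = 0.577). Clec12a, an inhibitory lectin receptor, was at 69.0, 259 and 588 CPM with PGE2 and 126, 479 and 719.6 without, with -1.03 (adjusted p = 0.00839). It was lower on plates A and C and not on plate B, where PGE2 wells held 579.9 to 588 CPM and untreated ones 489 to 719.6; without PGE2 replicate 6 or 7 or 1 of 3 untreated wells its value lay between -0.997 and -0.82, short of the minimum change.

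Mamdc2, a secreted proteoglycan, fell to 0, 1.99 and 7.41 CPM in the lowest, median and highest PGE2 culture, from 2.11, 9.94 and 36.96 in untreated cultures. Among the 8 PGE2 wells 4 lay below every untreated well, and the log2 fold change was -1.66 (95% confidence interval -2.21 to -1.11, adjusted p = 3.2e-04). It missed the minimum change with a pseudocount of 5, at -0.82 (adjusted p = 0.00534), and the adjusted p without plate C, at -0.89 (adjusted p = 0.631). Less firm is the fall of 1 more gene. Nanos1, an RNA-binding regulator of translation, had -1.42 (adjusted p = 0.0253), and -1.21 (adjusted p = 0.157) without replicate 6 and -1.05 (adjusted p = 0.201) without replicate 7.

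**Figure D2:**
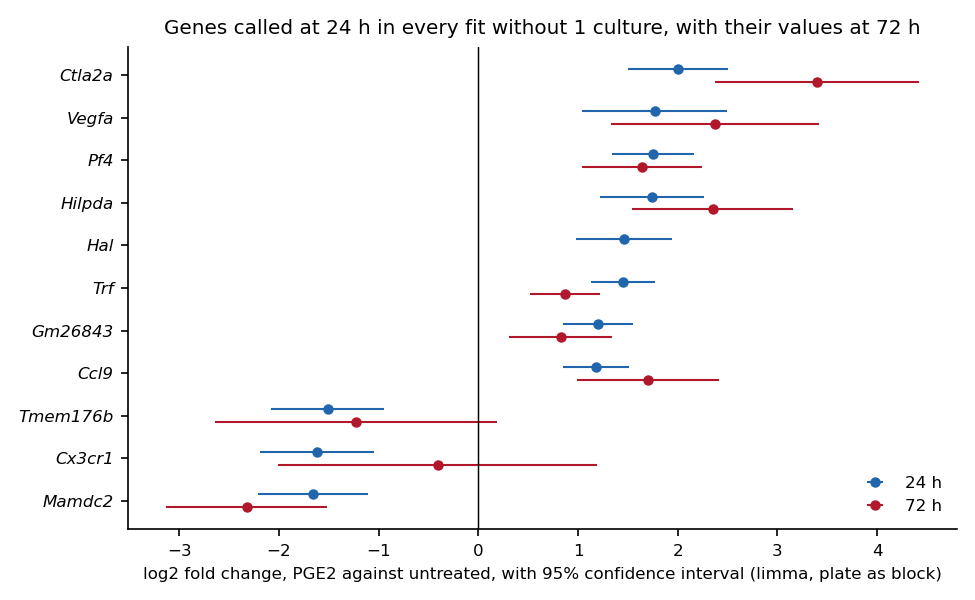
Log2 fold change of PGE2 against untreated cultures with its 95% confidence interval (limma, plate as block) for the 11 genes whose call at 24 h (blue) stood in every fit that left out 1 culture, with the same genes at 72 h (red) where they were tested. All estimates at 72 h lie on the same side of 0 as at 24 h.

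Genes of cell division tended lower without passing the test. None of 38 tested cell cycle genes was called by limma, 14 of them had an unadjusted p under 0.05, and the list median was -0.69 beside 0.05 for all genes. Hjurp, the chaperone that loads the centromere histone Cenpa and is not on the list, was called. Hjurp was at 0, 6.34 and 20.7 CPM with PGE2 and 2.28, 23.03 and 90.3 without, with a log2 fold change of -1.55 (95% confidence interval -2.23 to -0.87, adjusted p = 0.0181); without replicate 7, at 0 CPM, it was -1.13 (adjusted p = 0.165). On the list, Ccnb1, the cyclin of mitotic entry, was at 1.21, 7.62 and 12.8 CPM with PGE2 and 0.795, 32.2 and 87.4 without, with -1.58 (95% confidence interval -2.56 to -0.60, adjusted p = 0.176). Mki67, a marker of dividing cells, was at 0.703, 8.62 and 13.5 CPM with PGE2 and 0, 20.4 and 99.3 without, with -1.41 (95% confidence interval -2.57 to -0.26, adjusted p = 0.381). All 8 PGE2 values of both genes lay below the untreated median, within the untreated range.

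The summed level of these genes also had a lower median in edge wells than in middle wells, a difference that was not tested, and on plate A the untreated edge and middle wells lay in different library pools. The summed level of the 38 genes was 1558 and 2670 CPM in the 2 PGE2 edge wells and 1912 to 5311 (median 3346) in the 6 middle wells, against 1856 to 4687 (median 3334) in 10 untreated edge wells and 2980 to 5701 (median 4036) in 30 untreated middle wells. On plate H, which holds no PGE2, the 2 edge wells held 2009 and 2076 CPM and the 6 middle wells 4903 to 5701. With well type added to plate, a fit chosen after the data were seen, 87 genes were called (0.752%), 27 higher and 60 lower (0.519%), and all 22 genes called without well type were among them. In that fit 13 of the 38 cell cycle genes were lower, with a list median of -0.90. Ccnb1 had -1.99 (adjusted p = 1.1e-04), Mki67 -1.86 (adjusted p = 0.00793), the topoisomerase Top2a -1.80 (adjusted p = 7.0e-04) and the replication helicase subunit Mcm5 -1.52 (adjusted p = 4.1e-05). On plate B alone, where PGE2 was in middle wells and the untreated cultures in edge wells, the summed levels overlapped (3720 and 5311 CPM with PGE2, 4111 to 4687 without), and PGE2 and well position cannot be told apart there.

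**Figure D3:**
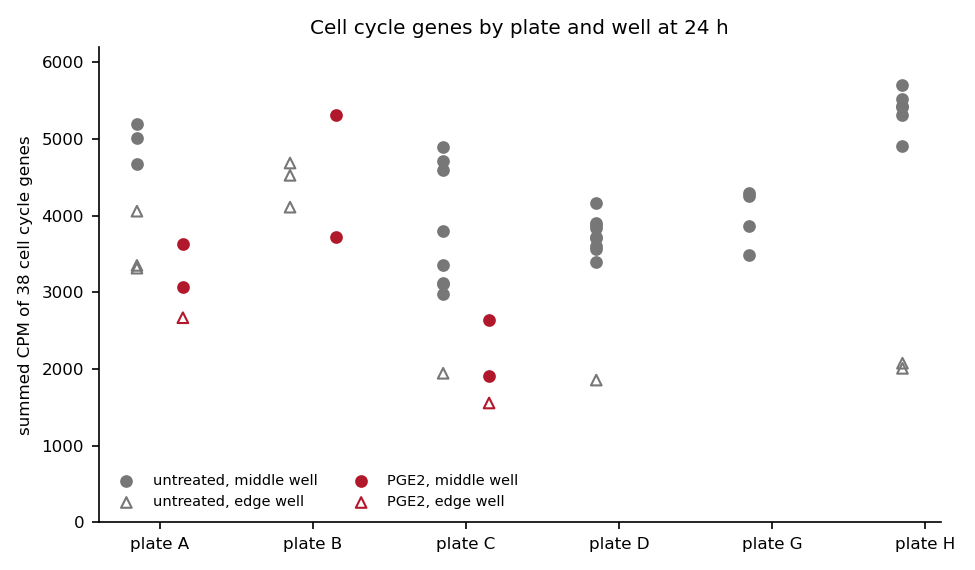
Summed CPM of 38 cell cycle genes in each culture at 24 h by plate, for PGE2 (red) and untreated (grey) cultures in middle (filled) and edge (open) wells. Edge wells lie below middle wells of the same group on plates A, C, D and H, and on plates A and C the PGE2 wells lie below untreated wells of the same position.

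Further genes passed the adjusted p with changes under the minimum. Higher were the inhibitory Fc receptor Fcgr2b, at 0.89 (adjusted p = 0.0229), the complement factor properdin (Cfp), at 0.82 (adjusted p = 1.3e-04), the protease cathepsin L (Ctsl), at 0.72 (adjusted p = 0.00839), the cholesterol exporter Abca1, at 0.84 (adjusted p = 0.0382), and the transglutaminase Tgm2, at 0.70 (adjusted p = 0.0382). The actin regulator Baiap2, the kinase Stk17b and the GTPase Arl4c were also higher, at 0.76, 0.60 and 0.60. Lower were the thioredoxin inhibitor Txnip, at -0.74 (adjusted p = 0.00839), the histone variant H2afz, at -0.81 (adjusted p = 0.0258), and the nuclear envelope protein Syne1, at -0.94 (adjusted p = 0.0382). With Ccl6 these are 12 of the 13 genes that passed the adjusted p alone.

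The remaining gene lists had no called gene at 24 h. Their medians, with the number of genes at an unadjusted p under 0.05 in brackets, were 0.03 for 28 phagocytic and complement genes (10), 0.36 for 26 cholesterol and lipid genes (11), 0.02 for 28 matrix, protease and adhesion genes (6), 0.35 for 29 interferon response genes (9). They were 0.51 for 9 genes of MHC class II and co-stimulation (5), 0.03 for 20 genes of disease-associated microglia (4) and 0.22 for 15 ion channels and purinergic receptors (3). Over all 11567 genes the median was 0.05, and 10.2% had an unadjusted p under 0.05. Of the 31 coexpression modules listed in the table used, which the study drew from cultures of this series, 10 held a called gene. Among 1358 module genes tested 10 were higher and 3 lower, beside 14 and 8 among all 11567. Module medians ran from -0.17 to 0.35. The study built the modules on selected conditions of the series, and its methods do not say whether PGE2 alone at 24 h was among them. The modules are therefore not taken as independent evidence of a direction.

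**Figure D4:**
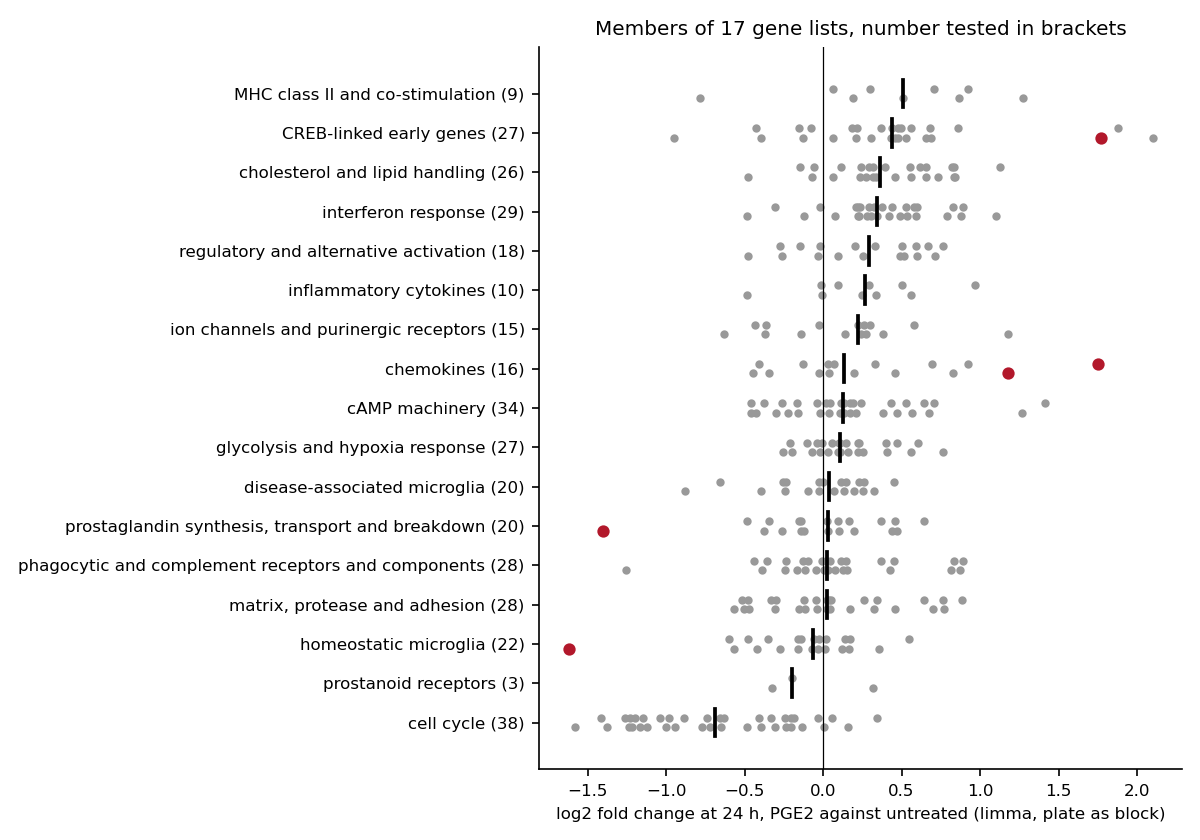
Log2 fold change at 24 h (limma, plate as block) of every tested member of 17 gene lists, with called genes in red and the list median as a bar. The 5 called members are Pf4, Ccl9 and Vegfa on the right and Cx3cr1 and Hpgd on the left; the cell cycle list has the lowest median, -0.69.

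At 72 h, in other cultures, PGE2 at the same dose changed more genes, and 5 of the 14 rises of 24 h were called again. Of 11233 genes tested, 92 rose (0.819%) and 30 fell (0.267%), 122 in all (1.09%). Of the 14 genes that rose at 24 h, 11 were tested at 72 h, all 11 had the same sign and 5 were called again: Ccl9, Ctla2a, Hilpda, Pf4 and Vegfa, which is 35.7% of the 24 h list and 5.43% of the 72 h list. Of the 8 that fell, 7 had the same sign and Mamdc2 was called again (12.5% and 3.33%). Thbs1, which had not passed at 24 h, led the rises: it was at 254, 848 and 2972 CPM with PGE2 and 0.660, 38.996 and 134 without, and the groups did not overlap. Its log2 fold change was 4.50 (95% confidence interval 3.25 to 5.74, adjusted p = 2.7e-04). Ctla2a was at 109, 149 and 397 CPM with PGE2 and 0, 19.9 and 58.0 without, again without overlap, with 3.40 (95% confidence interval 2.37 to 4.42, adjusted p = 5.1e-04).

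Vegfa at 72 h was 2.37 (adjusted p = 0.0141), Hilpda 2.35 (adjusted p = 0.00198), Pf4 1.64 (adjusted p = 0.0036) and Ccl9 1.70 (adjusted p = 0.00898). Trf passed the adjusted p with a smaller change, 0.87 (adjusted p = 0.0069). Cx3cr1 was at 2.65, 70.8 and 188 CPM with PGE2 at 72 h and 1.24, 60.9 and 265 without, with -0.41 (95% confidence interval -2.01 to 1.19, adjusted p = 0.849), and Tmem176b had -1.23 (95% confidence interval -2.64 to 0.18, adjusted p = 0.395). Neither passed at 72 h. Genes called at 72 h and not at 24 h include Il1b, at 1.78 (adjusted p = 0.0144), the co-stimulatory ligand Cd86, at 2.05 (adjusted p = 0.0281), and Abca1, at 1.58 (adjusted p = 0.0139). They were chosen for mention after their values were seen.

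The effect of PGE2 at 72 h was tested against that at 24 h for 12580 genes, and 8 differed (0.0636%), 5 higher at 72 h (0.0397%) and 3 lower (0.0238%); none of the 22 genes called at 24 h is among them. For Thbs1 the difference was 2.40 (95% confidence interval 0.81 to 3.99, adjusted p = 0.154), for Ctla2a 1.39 (95% confidence interval 0.33 to 2.45, adjusted p = 0.228) and for Cx3cr1 1.21 (95% confidence interval -0.34 to 2.76, adjusted p = 0.516). The larger count at 72 h is thus not matched by tested differences for these genes, and the intervals leave room for changes of more than the minimum size. The 72 h cultures came from 1 lot of cells (lot 3) and the 24 h PGE2 cultures from the other 2, so time and lot cannot be told apart. With library pool in place of plate, a fit chosen after the data were seen, 36 genes were called at 72 h, 20 higher and 16 lower, 19 of them among the 122. With well type added to plate, also chosen after the data were seen, 136 were called, 78 higher and 58 lower, so the balance of rises and falls depends on the fit. With library pool Thbs1 was 4.12 (adjusted p = 0.0232), Ctla2a 2.62 (adjusted p = 0.031), Hilpda 2.92 (adjusted p = 0.00341) and Mamdc2 -2.36 (adjusted p = 0.031). Pf4 (1.25, adjusted p = 0.173), Ccl9 (1.86, adjusted p = 0.0722) and Vegfa (2.47, adjusted p = 0.137) missed the test there, as did Il1b (1.27, adjusted p = 0.362), Cd86 (1.62, adjusted p = 0.331) and Abca1 (1.596, adjusted p = 0.15). Cd86 also missed it with well type added to plate, at 1.77 (adjusted p = 0.0537).

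Added to a bacterial-type stimulus for 72 h, PGE2 raised some of the genes that rose at 24 h and lowered the chemokine Ccl2. Added to P3C it raised 145 of 9502 genes (1.53%) and lowered 198 (2.08%), 343 in all (3.61%). Added to TNFa with P3C it raised 35 of 9539 (0.367%) and lowered 58 (0.608%), 93 in all (0.975%). Of the 14 genes that rose at 24 h, 6 rose on P3C (Ccl9, Ctla2a, Gm26843, Pf4, Trem1 and Trf; 42.9% of the 14 and 4.14% of the 145) and 2 on TNFa with P3C (Pf4 and Trf; 14.3% and 5.71%). Of the 8 that fell, Clec12a and Tmem176b fell on P3C (25% of the 8 and 1.01% of the 198) and Tmem176b on TNFa with P3C (12.5% and 1.72%). On P3C all 10 tested of the genes that rose at 24 h and all 7 tested of those that fell had the same sign as at 24 h. On TNFa with P3C these were 11 of 11 and 3 of 5. None went the other way past the test.

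Pf4 was at 1462, 2027 and 3926 CPM with P3C and PGE2 and 101, 109.6 and 323 with P3C alone, and the groups did not overlap (log2 fold change 3.89, 95% confidence interval 3.07 to 4.70, adjusted p = 7.3e-05). Trf was at 405, 609 and 756 CPM with both and 27.3, 39.1 and 66.7 with P3C alone, also without overlap (3.98, 95% confidence interval 3.42 to 4.55, adjusted p = 3.5e-06). Ccl2 went the other way, at 0, 2.20 and 5.44 CPM with both and 26.98, 146 and 165 with P3C alone, every well with PGE2 being below every well without (-4.36, 95% confidence interval -5.10 to -3.62, adjusted p = 1.5e-05). These differences held with TNFa in the mixture: 3.17 (adjusted p = 0.00141) for Pf4, 2.76 (adjusted p = 0.00691) for Trf and -5.003 (adjusted p = 6.9e-06) for Ccl2. Tnf was -2.47 (adjusted p = 0.0093) on P3C and -0.91 (adjusted p = 0.114) on TNFa with P3C, against -0.01 (adjusted p = 0.995) for PGE2 alone at 24 h and 0.03 (adjusted p = 0.987) at 72 h. For PGE2 alone Ccl2 was 0.33 (adjusted p = 0.769) at 24 h and, in the same direction as in the mixtures, -1.09 (adjusted p = 0.23) at 72 h, without passing. Whether the effect of PGE2 differs between these settings was not tested. With PGE2, 4 of the 7 wells of each mixture were edge wells, and without it none was. On plate F all wells with PGE2 were edge wells and all without it middle wells, so the fit with well type leans on plate J. For TNFa with P3C the values of that fit come from plate J alone, where the wells without PGE2 were all of library pool 19 and those with it all of pool 20, and PGE2 and pool cannot be told apart there. With well type added to plate, chosen after the data were seen, 171 of the 343 calls on P3C and 60 of the 93 on TNFa with P3C stayed. In it Pf4 was 2.85 (adjusted p = 0.00205) on P3C and 3.34 (adjusted p = 0.00922) on TNFa with P3C, Trf 3.75 (adjusted p = 2.8e-04) and 3.33 (adjusted p = 0.011), and Ccl2 -4.28 (adjusted p = 8.6e-04) and -5.51 (adjusted p = 5.1e-05), while Tnf on P3C was -1.04 (adjusted p = 0.171). Tmem176b was -2.96 (adjusted p = 0.169) and -3.37 (adjusted p = 0.0603) in those fits and no longer passed. The genes of the mixtures were chosen for mention after their values were seen, beyond those called at 24 h.

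**Figure D5:**
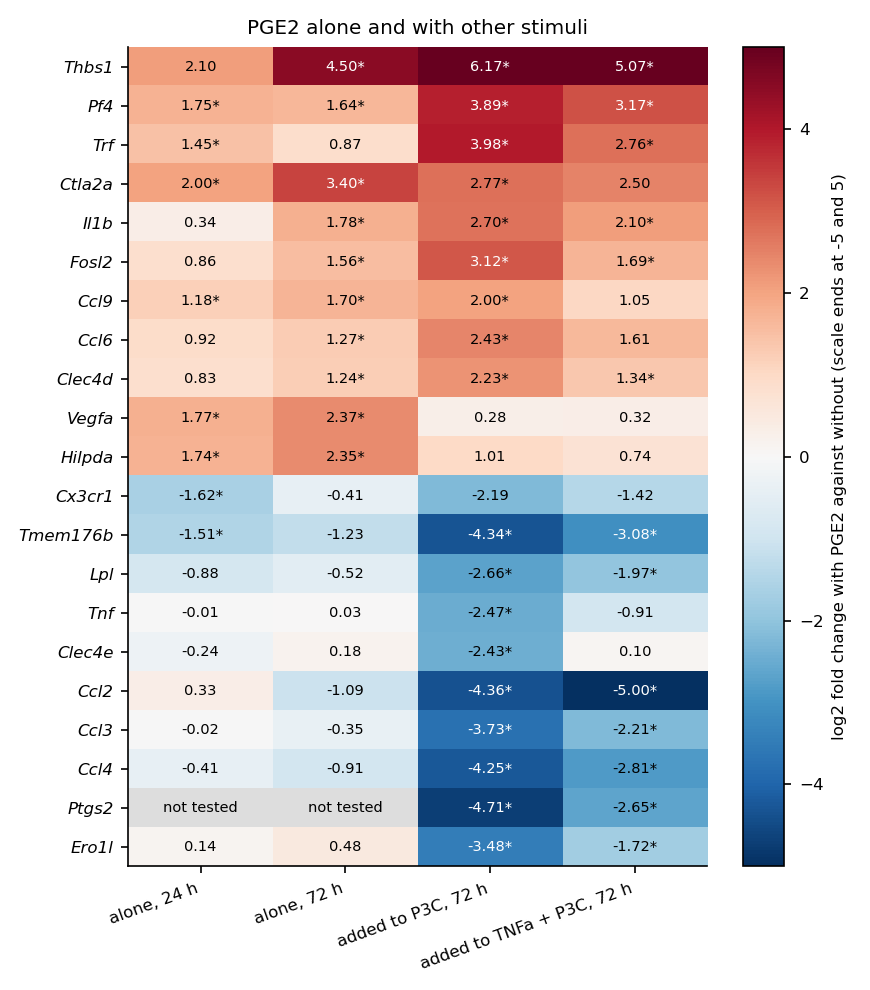
Log2 fold change of cultures with PGE2 against those without it for 21 genes (limma, plate as block), alone at 24 h and 72 h and added to P3C or to TNFa with P3C at 72 h; an asterisk marks an adjusted p under 0.05 with a change of at least 1, and grey a gene under the filter. Pf4 is called in all 4 columns, and Ccl3 and Ccl4 only where PGE2 was added to another stimulus.

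Norepinephrine, which also raises cyclic AMP through its beta receptors, gave a 24 h response that was set directly against that of PGE2 on plates A, B and C. On plates A and C the stimuli lay in different library pools (pools 2 and 5 for norepinephrine, 1 and 4 for PGE2), and on plate C both norepinephrine wells were edge wells and 2 of the 3 PGE2 wells middle wells, so stimulus and pool cannot be told apart on these plates. Of 11743 genes tested 4 differed (0.0341%). Trf (log2 difference 1.03, 95% confidence interval 0.66 to 1.41, adjusted p = 0.00658) and the matrix heparanase Hpse (1.36, 95% confidence interval 0.80 to 1.92, adjusted p = 0.0301) were higher with PGE2 (0.017%). With median-of-ratios scaling neither call stood: Trf was 0.92 (adjusted p = 0.00742), under the minimum change, and Hpse 1.25 (adjusted p = 0.0526). The actin-linked Marcksl1 (-1.89, 95% confidence interval -2.52 to -1.26, adjusted p = 0.00234) and the mitochondrial ribosome gene Mrpl52 (-1.13, 95% confidence interval -1.56 to -0.70, adjusted p = 0.0106) were lower with PGE2 (0.017%). Trf was at 142, 199 and 299 CPM with norepinephrine, which overlaps the PGE2 range of 258 to 729.8 CPM in few wells. Without the plate term none of the 4 passed, with 577 genes at an unadjusted p under 0.05. Each stimulus was also compared with the same untreated cultures, so the values stand side by side only: Pf4 was 1.75 with PGE2 and 1.5995 with norepinephrine, Ccl9 1.18 and 1.49, Trem1 1.55 and 1.78, Cx3cr1 -1.62 and -1.41, and Ctla2a 2.005 and 0.86. For Ctla2a the direct difference was 1.12 (95% confidence interval 0.40 to 1.85, adjusted p = 0.259) and for Hilpda 1.44 (95% confidence interval 0.68 to 2.20, adjusted p = 0.163), neither of which passed.

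The 8 PGE2 cultures stood on 3 plates and 2 lots of cells, and wells of a plate share handling; with so few plates, effects of plate, lot and pool were not separated. Each well holds many cells, and what share of them responded is not known. RNA was measured once at 24 h and at 1 dose, so neither an early peak nor dose dependence was tested. Protein, cyclic AMP and receptor use were not measured, and no culture of these groups had a receptor blocker. At 72 h on plate J all 5 untreated wells were edge wells. Genes under the filter, Ptgs2, Il6 and Il10 among them, were not tested.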

How the data were processed

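RNA was read by sequencing 3′ ends of transcripts. Per the labels and headers, the authors quantified reads with Salmon 0.7.1 and deposited values scaled to 1e6 mapped reads (CPM; the paper's word is TPM), without length scaling; the notes name mm8 and the methods Ensembl 81. The deposited table lists 45581 genes in 784 cultures; 115 columns were used and 669 were not, since they hold other stimuli or times. Depth was estimated from the step between low values; 72.6 to 85.1% of low values lay within 0.1 read of a whole number, so counts were not rebuilt. Python 3.11.15 (pandas 2.3.3) and R 4.3.3 were used. limma 3.58.1 was fitted to log2(CPM + 1) of genes above 5 CPM in at least 4 cultures of the fit, with plate as a fixed block and Benjamini-Hochberg adjustment over all genes; a call needs an adjusted p under 0.05 and a log2 fold change of at least 1 in size. Named genes are the called ones (up to 15 each way with a mean of at least 5 CPM, the same sign on each shared plate and no predicted gene), all prostanoid receptors, Ptgs1, Ptgs2, Ptges and Hpgd, and up to 5 called or 2 uncalled members of each list; others were chosen after their values were seen. Members, 17 gene lists and 10 marker lists were chosen with earlier results of these data known. Gene positions are from GENCODE vM21 (GRCm38). Alternatives covered pseudocount, filter, scaling, block, plates, single cultures, well type and an exact rank-sum test.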

Additional observations from a re-analysis of the deposited data

Results flagged for a closer look

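Among 70 groups of values checked for a culture far from the rest, 5 held one; chance sets apart about 1 in 20 groups. In the PGE2 cultures at 24 h, Hjurp was at 0 CPM in replicate 7 (others 4.61 to 20.7) and Hpgd at 0.703 CPM in the same replicate (others 13.4 to 90.6). Ptgdr2 was at 0.618 CPM in replicate 2 and at 0 in the others, and Il6 at 0.423 CPM in replicate 3 (others 0 to 0.165). At 72 h, PGE2 replicate 4 had a depth of 38.2 M reads (others 2.42 to 8.85).

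The effect of PGE2 at 72 h minus that at 24 h passed the test for 8 genes (limma, log2 scale). It was lower at 72 h for Ppap2c (-3.22, adjusted p = 0.011), Mcoln3 (-2.46, adjusted p = 0.0431) and Anpep (-1.65, adjusted p = 0.0431). It was higher for RP23-314N3.1 (1.85), RP23-422D12.3 (1.89), Tpbg (2.08), Pcsk2 (2.25) and Gm17615 (2.55), at adjusted p of 0.0216 to 0.0439. The cause was not tested.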

How the results depend on the processing

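The 22 genes called at 24 h became 65 without the plate term, 35 with no minimum change, 84 by an exact rank-sum test without plate, 13 without plate A and 11 without plate C. Leaving out 1 PGE2 culture gave 13 to 26, and 1 untreated culture 18 to 31. Added after seeing the data, well type beside plate gave 87. At 72 h the 122 became 64 with a pseudocount of 0.1 and, added after seeing the data, 36 with library pool in place of plate, of which 19 are among the 122. Without the PGE2 culture of highest depth at 72 h, also added after seeing the data, 88 were called, 68 higher and 20 lower. Of these 81 are among the 122. The 8 differences between times became 1 with a pseudocount of 0.1, 18 without plate and 13 with median-of-ratios scaling. The 343 genes of PGE2 on P3C became 517 and the 93 on TNFa with P3C 318 with well type added, also chosen after seeing the data; of the reported calls 171 (49.9%) and 60 (64.5%) stayed, and the others ended; without plate the 93 became 51. The 4 differences from norepinephrine became 0 without plate and 2 with median-of-ratios scaling. Where fewer cultures or no minimum change did not set the count, the cause was not tested. A fit of all 24 h cultures together was not run, because columns outside these groups were not described.

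Of the alternatives for named genes called at 24 h, 202 kept direction and call and 32 kept the direction without the call. Signs turned only for genes that were not called: without plate Il1a -0.72, Igf1 0.026, Ifit1 -0.69, H2-DMa -0.17, Plin2 -0.095, Pkm -0.35, Il1b -0.77, Ifit3 -0.58; with library pool Ptger2 -0.17, H2-DMa -0.19, Cd68 -0.010, Itgb1 -0.059, Plin2 -0.052, Gapdh 0.043, Ptges 0.23; with median-of-ratios scaling Plin2 -0.0035, Cdkn1a -0.059; with well type Cdkn1a -0.020; with a pseudocount of 0.1 Ptges 0.051. Without 1 PGE2 culture the ranges crossed 0 for Ptger1 -0.52 to 0.065, Tnf -0.10 to 0.11, Igf1 -0.11 to 0.0045, Irf9 -0.12 to 0.065, H2-DMa -0.043 to 0.17, Cdkn1a -0.12 to 0.11, Ptges -0.27 to 0.072 and Naaa -0.61 to 0.054. The cause was not tested. No paired analysis was possible because the labels carry no replicate number that ties wells of different groups: the numbers follow the order of the samples. At the lowest depth 1 read is 0.918 CPM, which limits genes of a few CPM.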

Other observations

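PGE2 added to the lipopeptide stimulus for 72 h changed genes of several groups; whether its effect differs from that of PGE2 alone was not tested. On P3C, where 1.53% of all genes rose and 2.08% fell, 7 of 16 chemokines rose and 6 fell: Ppbp was 4.40 (adjusted p = 0.0105) and Ccl6 2.43 (adjusted p = 0.00132), while Ccl3 was -3.73 (adjusted p = 2.6e-04) and Ccl4 -4.25 (adjusted p = 0.0117). Thbs1 was at 2369.7, 4033 and 4839 CPM in the lowest, median and highest culture with both and 21.2, 54.9 and 92.8 with P3C alone. The groups did not overlap. Il1b rose (2.70, adjusted p = 0.00169) where Tnf fell (-2.47, adjusted p = 0.0093), and Il10 fell (-3.56, adjusted p = 0.0316). The inducible cyclooxygenase Ptgs2 was at 0, 1.96 and 6.92 CPM with both and 17.3, 32.8 and 232 with P3C alone (-4.71, adjusted p = 0.00134). Of 27 genes of glycolysis and the hypoxia response, 4 fell and 1 rose (median -0.74, all genes -0.14), with Ndrg1 at -4.16 and Ero1l at -3.48. Of 30 cell cycle genes 6 fell and none rose (median -1.07). With well type added to plate, chosen after the data were seen, 218 genes rose and 299 fell of 9502, among them 6 and 2 of the 16 chemokines, 1 and 4 of the 27 glycolysis and hypoxia genes and 0 and 4 of the 30 cell cycle genes.

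On TNFa with P3C, where 0.367% of all genes rose and 0.608% fell, 7 of 24 interferon response genes fell and none rose (median -1.55, all genes -0.04), among them Ifit1 (-3.31, adjusted p = 0.00974) and Usp18 (-2.65, adjusted p = 0.00615). Thbs1 rose (5.07, adjusted p = 2.8e-06) and Ptgs2 fell (-2.65, adjusted p = 0.00298). With well type added to plate, 135 genes rose and 183 fell of 9539, among them 0 and 6 of the 24 interferon response genes. In these mixtures edge wells occur only with PGE2, 4 of 7 in each. With well type added to plate, Thbs1 was 5.81 (adjusted p = 1.1e-04) on P3C and 5.43 (adjusted p = 5.1e-05) on TNFa with P3C, and Ptgs2 -6.75 (adjusted p = 1.8e-04) and -2.32 (adjusted p = 0.0328), while Ccl4 on P3C was -1.95 (adjusted p = 0.229) and no longer passed.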
